A study of Mus musculus with 3 samples.

Results

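The 31 voltage-gated sodium and calcium channel genes that the tables of these cultures list under the symbols Scn, Cacna1, Cacna2d and Cacnb were followed through 0, 1 and 6 h of potassium depolarization. They were matched by gene symbol, from 25562 genes in all. They comprise 13 sodium channel genes (9 pore-forming alpha and 4 beta subunits) and 18 calcium channel genes. The calcium channel genes are 10 pore-forming alpha1 subunits (4 of the Cav1, 3 of the Cav2 and 3 of the Cav3 family), 4 alpha2delta subunits and 4 beta subunits. The sodium channel gene Scn2a appears in the tables under its older symbol Scn2a1, which the name rule does not match, and it is not counted among the 31.

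The cells were MGE neurons, from the ganglionic eminence that gives rise in the embryo to many inhibitory interneurons of the cortex. They were taken from C57Bl/6 mice on embryonic day 14 and kept 10 days in vitro. All 3 library titles carry WT, which the labels do not spell out. All cultures, the 0 h control included, had been silenced overnight from day 9 with TTX and AP-5. TTX (tetrodotoxin) blocks the pore of most sodium channels encoded by Scn genes, and AP-5 blocks NMDA-type glutamate receptors. On day 10 they received 55 mM extracellular KCl for 0, 1 or 6 h, and ribosome-depleted total RNA was sequenced on the SOLiD platform, 1 library per time. With 1 library in each group no spread between cultures could be measured, no comparison has a replicate check, and no p-value is given.

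Voltage-gated sodium channels open on depolarization and carry the rising phase of the action potential, and their beta subunits tune gating and anchor the channel in the membrane. Calcium channels convert depolarization into calcium entry: Cav1 channels (L-type) couple activity to gene expression, Cav2 channels trigger transmitter release, and Cav3 channels (T-type) open near resting potential and support bursting. The alpha2delta and beta subunits bring alpha1 to the surface and set its current. Raised potassium is a usual way to open L-type channels in cultured neurons.

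Uniquely mapped reads numbered 8996897 at 0 h, 8549377 at 1 h and 8579378 at 6 h. Of these, 2189394, 2457167 and 2480579 were sense exonic reads and 2123187, 1789710 and 2095060 sense intronic reads. The 31 genes took 6169, 6244 and 6361 of the exonic reads and 9495, 5971 and 9003 of the intronic reads. The 16 markers of MGE-derived interneurons summed to between 5157 and 6845 RPM (exonic reads per 1000000 TMM-scaled exonic reads), with Lhx8 called higher at 1 h and none called at 6 h. The 10 markers of astrocytes and radial glia summed to between 2568 and 3117, with Vim called higher at 6 h, and the 8 of excitatory cortical neurons to between 63.7 and 98.2, with Neurod2 and Emx1 at 0. Oligodendrocyte markers summed to between 141 and 176 (Olig2 higher and Pdgfra lower at 6 h, Mog at 0), markers of dividing cells to between 105 and 114 (Cdk1 called higher at 6 h), endothelial and meningeal markers to between 9.55 and 12.9, and microglial markers to at most 0.446. These are mixed cultures read in bulk, so fewer cells of a type and less RNA per cell cannot be told apart. The interneuron, astrocyte and oligodendrocyte sums were each highest at 6 h, and the part of other cells in the channel values was not tested.

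Ratios are of TMM-scaled counts, with exact 95% intervals that cover counting error only. A gene was measured in a comparison when 1 of the 2 libraries held at least 20 reads, and it was called higher or lower when it differed by at least 2-fold and the interval excluded 1. Levels are RPM per kb of exon, written RPKM. They are not corrected for mappability, which is how far reads from a gene can be placed uniquely. Exons and introns were scaled separately, each to its own average over genes, so a difference between an exonic and an intronic ratio is relative to those averages.

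Of the 31 genes, 21 were measured in exons, and 10 had under 20 exonic reads in each library. Among the 10 were Scn4a, Scn7a, Scn9a, Scn10a, Scn11a, Scn4b, Cacna1f, Cacna1s and Cacna2d4. Scn4a and Cacna1s are the channels of skeletal muscle, and Scn9a, Scn10a and Scn11a those of peripheral sensory neurons. Cacna1f and Cacna2d4 serve photoreceptor synapses, and Scn4b is a beta subunit linked to resurgent sodium current. Scn4b had 0, 0 and 1 exonic reads at 0, 1 and 6 h, and Cacna2d4 had 0, 3 and 1. A count of 3 reads, taken as the floor, corresponded to 1.34, 1.19 and 1.27 RPM at the 3 times. Falls and small rises in these genes could therefore not be detected at this depth. Markers of heart and skeletal muscle summed to 9.82, 7.56 and 10.5 RPM, and those of peripheral sensory neurons to 5.80, 5.97 and 6.33.

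In the silenced cultures the levels of the 21 measured genes ran from 4.45 RPKM for Cacna1g to 70.4 RPKM for Scn3b. Scn3b encodes a sodium beta subunit and stood apart at the top in all 3 libraries, at 70.4, 66.9 and 70.4 RPKM. Next by RPKM at 0 h came Cacna1b, the N-type pore of presynaptic terminals, at 45.7 RPKM. Scn3a, the sodium alpha subunit of immature neurons, followed at 38.3 RPKM. These levels are not corrected for mappability, which was lower for Scn3a than for Cacna1b. In the authors' exonic coverage, which is corrected for it, Scn3a stood above Cacna1b at 0 h. Cacnb3 stood at 34.6 RPKM and Cacna2d2 at 32.2 RPKM. Most neighbours in the order did not differ beyond counting error: of the 20 neighbouring pairs, 16 had overlapping Poisson intervals at 0 h, 18 at 1 h and 17 at 6 h.

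**Figure D1:**
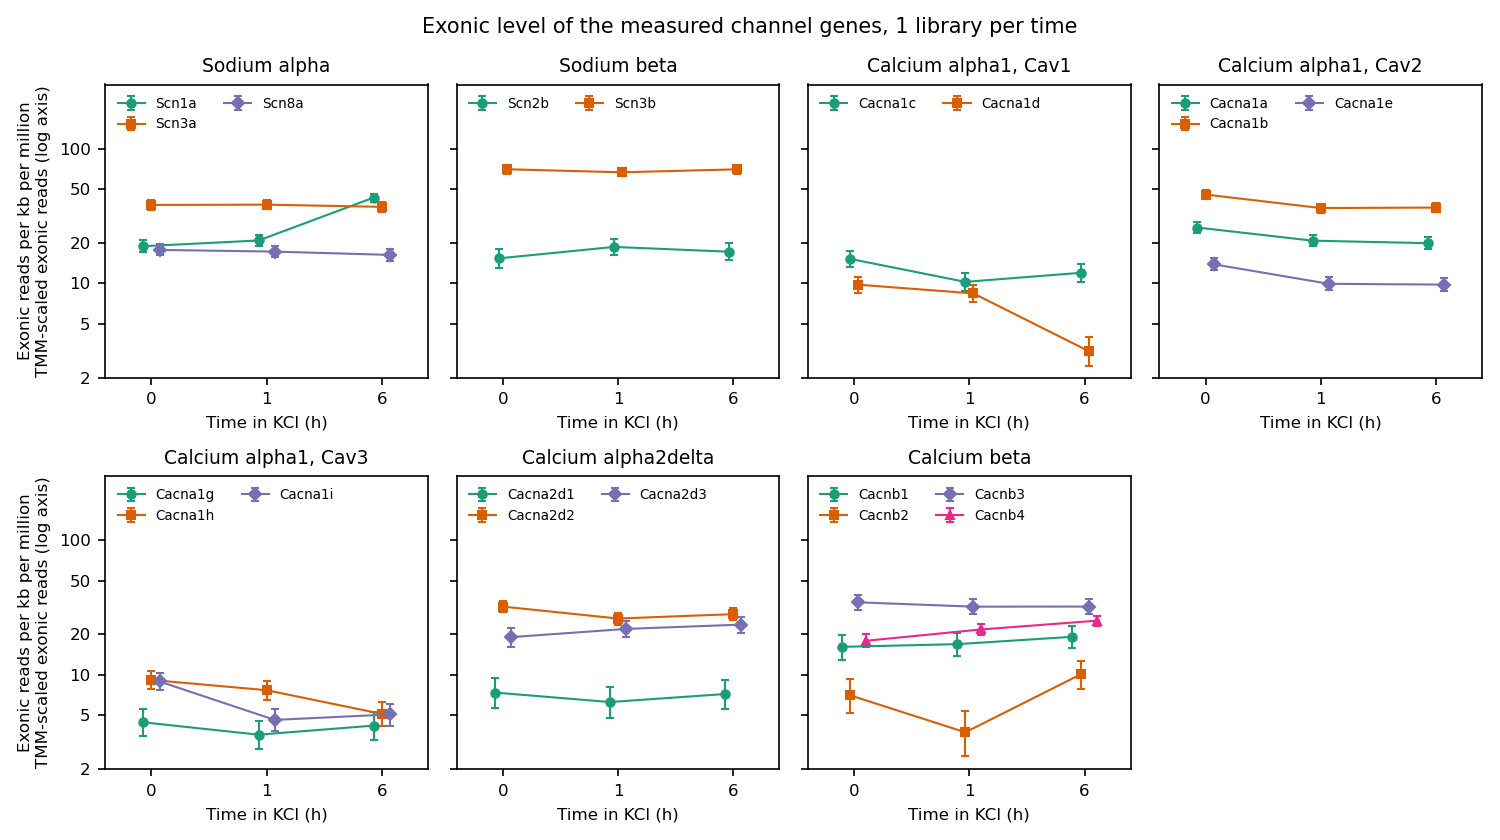
Exonic level (RPKM, log axis) of 20 measured channel genes at 0, 1 and 6 h of KCl, in panels by subunit type, with 1 library per point and bars showing exact 95% Poisson intervals for counting error. Scn1a lies at 18.9, 20.8 and 43.4 RPKM and Cacna1d at 9.79, 8.43 and 3.15 RPKM, while Scn3a, Scn8a and Scn3b are nearly level.

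Among the sodium alpha subunits, Scn1a (Nav1.1, the sodium channel on which fast-spiking interneurons depend) was the one called. It had 351, 434 and 853 exonic reads at 0, 1 and 6 h, which is 18.9, 20.8 and 43.4 RPKM. The 0 h and 1 h values were close and the 6 h value stood clear of both. The ratio was 1.10 (0.956 to 1.27) at 1 h against 0 h and 2.30 (2.03 to 2.61) at 6 h against 0 h. By RPKM, uncorrected for mappability, Scn1a ranked 9 of 21 among the measured genes at 0 h and 2 of 21 at 6 h. Its uncorrected interval at 6 h (40.6 to 46.5 RPKM) lay above that of Scn3a (34.2 to 40.1 RPKM), whereas at 0 h Scn3a had stood above it. Mappability was lower for Scn3a than for Scn1a. In the authors' exonic coverage, which is corrected for it, Scn3a also stood above Scn1a at 0 h. At 6 h the corrected values of both genes were nearly equal. Whether Scn1a exceeded Scn3a at 6 h beyond counting error after that correction was not tested.

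The other measured alpha subunits had ratios close to 1. Scn3a had 600, 676 and 614 exonic reads, and its ratios were 1.00 (0.899 to 1.12) at 1 h and 0.968 (0.863 to 1.08) at 6 h. Scn8a (Nav1.6, the main channel of mature axon initial segments) had 449, 489 and 436 reads, with ratios of 0.971 (0.853 to 1.11) and 0.918 (0.803 to 1.05). Scn2a1, outside the rule, had 754, 931 and 810 reads and ratios of 1.10 (0.999 to 1.21) and 1.02 (0.919 to 1.12). The counted reads had to map uniquely, and Scn1a, Scn2a1 and Scn3a, which lie near each other on chromosome 2 and share sequence, had the lowest exonic mappability indices of all these genes, at 0.800, 0.752 and 0.703. Reads from identical stretches of these paralogs were therefore not counted for any of them.

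The Scn1a difference appeared in every part of the transcript that the tables separate. Coding exons had 264, 320 and 563 reads at 0, 1 and 6 h, a ratio of 2.02 (1.74 to 2.34) at 6 h against 0 h. The 3′ untranslated part had 83, 108 and 280 reads, a ratio of 3.19 (2.49 to 4.13). Reads across splice junctions numbered 26, 36 and 56, a ratio of 2.04 (1.26 to 3.38). Both the junction reads and the coding reads were highest in the 6 h library.

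Scn1a introns were higher at 6 h as well. The gene (mm9 chr2:66108839-66278894, minus strand, 27 exons) held 489, 337 and 1247 intronic reads, and the intronic ratio was 0.938 (0.814 to 1.08) at 1 h and 2.86 (2.57 to 3.18) at 6 h. With exons and introns scaled separately, the exonic ratio at 6 h was 0.803 times the intronic ratio (0.683 to 0.945). The intronic share of the gene's sense reads, which uses no scaling, was 58.2% at 0 h and 59.4% at 6 h. A difference between introns and exons at 6 h thus depends on the scaling. A predicted gene model on the same strand, LOC100039486, overlaps Scn1a, but it had only 0, 0 and 1 exonic and 0, 3 and 4 intronic reads of its own at 0, 1 and 6 h.

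Reads were not spread evenly over these introns. Intron 21, counted from the 5′ end, is 7.60 kb long and makes up 4.70% of the intronic length, yet it held 131, 101 and 391 reads, which is 26.8%, 30.0% and 31.4% of the gene's intronic reads at 0, 1 and 6 h. Its ratio at 6 h against 0 h was 3.35 (2.74 to 4.11). Leaving this intron out, a check chosen after its count was seen, gave 358, 236 and 856 reads and a ratio of 2.68 (2.37 to 3.04). The rest of the introns therefore showed the 6 h difference too. Intron 22, of 1.10 kb, had 15, 15 and 56 reads and at 6 h about as many reads per kb as intron 21 (51.0 against 51.5), while intron 1, of 89.5 kb, had 118, 61 and 237 reads.

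GENCODE M21 places an exon of 64 bases in this intron, at GRCm38 chr2:66293832-66293895 on the minus strand, in 1 of its 8 Scn1a transcripts. That transcript is annotated as a target of nonsense-mediated decay, the pathway that destroys messages with early stop codons. The intron was identified by its flanking exons of 123 and 282 bases, not by position, since the tables use mm9. The exon's length is not a multiple of 3, and the annotated stop codon starts at base 129 of the exon that follows. Such a frame-shifting exon is called a poison exon, because its inclusion prevents full-length protein. It is shown here because it lies in the intron with the most reads; the tables give 1 count for the whole intron, so how many of those reads came from the exon is unknown.
Scn1a extra exon: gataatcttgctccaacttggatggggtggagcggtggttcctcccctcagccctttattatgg

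The promoter window of Scn1a, the 250 bases before its RefSeq start (GRCm38.p6, chr2:66440838-66441087, minus strand), was searched on both strands for 4 motifs bound by activity-dependent factors. These were the cAMP response element (TGACGTCA), the AP-1 site (TGANTCA), the EGR site (GCGNGGGCG) and the CArG box. None was found, and so the sequence is in lower case throughout.
Scn1a: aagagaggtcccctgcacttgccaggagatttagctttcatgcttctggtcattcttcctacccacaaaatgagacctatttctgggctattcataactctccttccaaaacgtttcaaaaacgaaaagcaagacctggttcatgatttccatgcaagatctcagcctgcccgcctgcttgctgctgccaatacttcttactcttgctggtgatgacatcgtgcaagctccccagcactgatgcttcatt
The letters searched occur in 1.55%, 6.75%, 4.70% and 1.47% of all 32841 RefSeq windows of this length, in the order given. RefSeq windows were matched for 23 of the 31 genes, 32 windows in all, of which 0 held a cAMP response element, an AP-1 site or a CArG box and 6 held an EGR site. The 6 belonged to Cacna1b, Cacna1c (its second start), Cacna2d1, Cacna2d2, Scn7a and Scn8a. A match, or its absence, describes letters in the window and says nothing of binding.

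The sodium beta subunits showed no called difference in exons. Scn3b had 727, 774 and 768 reads, with ratios of 0.949 (0.857 to 1.05) at 1 h and 0.999 (0.901 to 1.11) at 6 h. Scn2b had 157, 214 and 186 exonic reads, with ratios of 1.22 at 1 h and 1.12 at 6 h. The intervals of both genes spanned 1 at both times. In introns Scn2b was called lower at 6 h, 3.57-fold (1.30 to 12.2), but on only 20, 10 and 5 reads.

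In exons as a whole, none of the 21 measured genes was called higher or lower at 1 h against 0 h, where 1.58% of the 10093 measured genes of the tables were called higher and 1.43% lower. At 6 h against 0 h, 1 of 21 was called higher (Scn1a) and 1 lower (Cacna1d), where 4.92% and 5.42% of 10095 genes were called. Between 1 h and 6 h, Scn1a and Cacnb2 were called higher and Cacna1d lower, where 4.17% and 4.63% of 10137 genes were called; scaled by total or uniquely mapped reads, Scn1a was 1.95-fold and 1.96-fold higher there and missed the rule. The channel genes' shares at 6 h against 0 h were thus near those of all genes. The median log2 ratio of the 21 genes was −0.22 at 1 h and −0.08 at 6 h against 0 h, beside 0.01 and 0.00 over all measured genes. Scaling by uniquely mapped reads moved both medians alike, at 1 h to 0.02 for the channel genes and 0.25 for all genes. By the interval alone, 1 of the 21 lay above 1 and 7 below it at 1 h (12.1% and 12.9% of all genes). For 6 h against 0 h the numbers were 3 and 7 (23.2% and 21.0%), and for 6 h against 1 h they were 3 and 2 (21.5% and 17.8%).

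**Figure D2:**
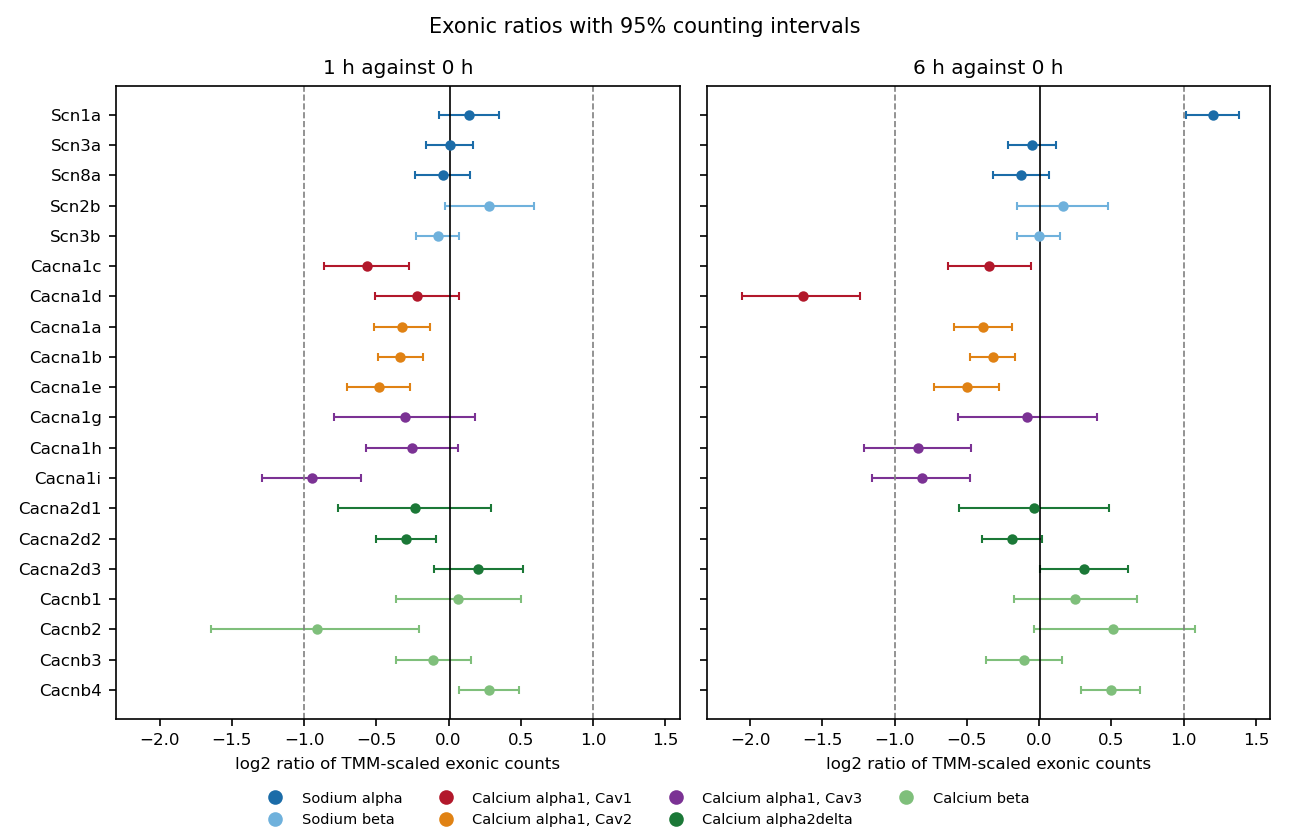
Exonic log2 ratios at 1 h (left) and 6 h (right) against 0 h for 20 measured genes, coloured by subunit type, with exact 95% counting intervals; the solid line is the median of all measured genes and the dashed lines mark 2-fold. All 8 calcium alpha1 genes lie left of 0 in both panels, Scn1a lies beyond 2-fold on the right and Cacna1d beyond 2-fold on the left at 6 h.

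Of the calcium alpha1 subunits, none was called in exons at 1 h and 1 (Cacna1d) was called lower at 6 h. All 8 measured genes had exonic ratios below 1 at 1 h (0.519 to 0.861) and at 6 h (0.321 to 0.946), with medians of −0.33 and −0.44 on the log2 scale. Over all genes, 4956 of 10093 had a ratio below 1 at 1 h and 5028 of 10095 at 6 h. The interval lay wholly below 1 for 5 of 8 at 1 h and for 7 of 8 at 6 h, so that 5 of the 7 such channel genes at 1 h, and all 7 at 6 h, were alpha1 genes. Of all measured genes 12.9% and 21.0% had such an interval. In introns 7 of the 8 had ratios below 1 at 1 h and 6 of 8 at 6 h, with the highest at 1.32 and 1.07. Over all genes, 4343 of 8143 had an intronic ratio below 1 at 1 h and 3775 of 8236 at 6 h. The intronic interval lay below 1 for 2 of 8 and 4 of 8 alpha1 genes, beside 19.9% and 15.9% of all genes. Both comparisons use the same 0 h library, so they are not independent of each other. Scaling by uniquely mapped reads instead raised the median of all genes at 1 h from 0.01 to 0.25, and then 7 of 8 ratios lay below 1 at each time, with the interval below 1 for 3 of 8 and 6 of 8.

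Of the Cav1 genes, Cacna1d (Cav1.3, an L-type pore that opens at relatively negative voltages) had the largest exonic difference of any measured channel gene at 6 h against 0 h. It had 203, 196 and 69 exonic reads, or 9.79, 8.43 and 3.15 RPKM. The 0 h and 1 h intervals overlapped, and the 6 h value lay below both. At 1 h the ratio was 0.861 (0.704 to 1.05), and at 6 h the gene was 3.11-fold lower (2.36 to 4.15). It went from rank 16 of 21 at 0 h to rank 21 of 21 at 6 h. Coding reads (161, 160 and 55), 3′ untranslated reads (36, 32 and 13) and junction reads (27, 25 and 7) all showed it.

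Cacna1d introns were lower already at 1 h. The gene (mm9 chr14:30853125-31304342, minus strand, 48 exons) held 828, 432 and 280 intronic reads. The intronic ratio was 0.710 (0.631 to 0.799) at 1 h, and at 6 h introns were 2.64-fold lower (2.30 to 3.03). Thus the 1 h interval lay below 1 in introns and spanned 1 in exons. The ratio of exonic to intronic change was not resolved at 1 h or at 6 h against 0 h. Between 1 h and 6 h, with exons and introns scaled separately, the exonic change was 0.702 times the intronic one (0.514 to 0.959).

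The distribution of Cacna1d reads over the gene had a sharp step. Intron 1, of 137 kb, held 14, 6 and 2 reads, or 0.102, 0.0436 and 0.0145 reads per kb. Intron 4, of 150 kb, held 363, 144 and 148 reads, or 2.42, 0.960 and 0.987 reads per kb. Its ratio was 0.540 (0.442 to 0.657) at 1 h against 0 h and 0.847 (0.669 to 1.07) at 6 h against 1 h. Without intron 4 the introns held 465, 288 and 132 reads. Their ratio was 0.843 (0.725 to 0.979) at 1 h against 0 h and 0.378 (0.305 to 0.466) at 6 h against 1 h. RefSeq lists a second start of the gene 137670 bases downstream of the first in GRCm38.p6, which is exactly the distance from exon 1 to exon 2 in the tables' gene model. Few reads thus came from the part of the gene that only the upstream start would transcribe. Both windows are printed because they differ in base composition: 39.6% G and C before the first start (chr14:30491157-30491406) and 86.4% before the second (chr14:30353487-30353736), both on the minus strand and both without the 4 motifs.
Cacna1d first start: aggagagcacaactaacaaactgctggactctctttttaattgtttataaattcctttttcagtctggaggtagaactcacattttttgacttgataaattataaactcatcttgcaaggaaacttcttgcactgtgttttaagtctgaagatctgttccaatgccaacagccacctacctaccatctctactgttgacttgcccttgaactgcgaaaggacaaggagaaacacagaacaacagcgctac
Cacna1d second start: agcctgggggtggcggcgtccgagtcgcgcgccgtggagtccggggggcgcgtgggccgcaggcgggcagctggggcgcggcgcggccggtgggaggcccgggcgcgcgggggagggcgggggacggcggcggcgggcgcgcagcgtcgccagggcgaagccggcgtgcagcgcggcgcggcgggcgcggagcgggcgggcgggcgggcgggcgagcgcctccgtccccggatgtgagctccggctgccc

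Cacna1c (Cav1.2, the more abundant L-type pore of forebrain) had 222, 168 and 185 exonic reads. It was lower at both KCl times, 1.48-fold (1.21 to 1.82) at 1 h and 1.27-fold (1.04 to 1.55) at 6 h. Scaled by uniquely mapped reads, its exonic interval at 6 h spanned 1. Its introns, 596 kb in all, held 2007, 1258 and 1393 reads, the most of any channel gene, with ratios of 0.853 (0.794 to 0.916) and 0.778 (0.726 to 0.834). Between 88.2% and 90.0% of the sense reads of Cacna1c were intronic. Like Cacna1d, it was lower in exons and introns alike at 6 h, but by less.

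The Cav2 genes, whose pores drive transmitter release, were each lower in exons at both times with intervals below 1. Cacna1a (P/Q-type) had 462, 414 and 374 reads and ratios of 0.799 (0.698 to 0.915) and 0.766 (0.666 to 0.879). Cacna1b (N-type) had 747, 665 and 632 reads and ratios of 0.794 (0.714 to 0.883) and 0.800 (0.719 to 0.891). Cacna1e (R-type) had 395, 317 and 295 reads and ratios of 0.716 (0.615 to 0.832) and 0.706 (0.605 to 0.823). The 6 h against 1 h ratios of the 3 genes lay between 0.958 and 1.01. Scaled by uniquely mapped reads, the ratios at 1 h and 6 h were 0.943 and 0.849 for Cacna1a, 0.937 and 0.887 for Cacna1b, and 0.845 and 0.783 for Cacna1e. With that scaling the 1 h intervals of Cacna1a and Cacna1b spanned 1. At 6 h the introns of Cacna1a and Cacna1b had ratios of 1.07 (0.939 to 1.23) and 1.03 (0.940 to 1.12), and those of Cacna1e 0.846 (0.744 to 0.962).

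The Cav3 genes were among the least abundant, at 4.45 (Cacna1g), 9.18 (Cacna1h) and 8.94 RPKM (Cacna1i) at 0 h. Cacna1i (Cav3.3) had 196, 114 and 118 exonic reads. It was 1.93-fold lower (1.52 to 2.45) at 1 h and 1.76-fold lower (1.39 to 2.23) at 6 h, short of the 2-fold rule at both times. Scaled by uniquely mapped reads, the 1 h ratio of Cacna1i was 0.612. Its introns were called lower at 6 h, 2.23-fold (1.37 to 3.74), on 60, 39 and 24 reads. Cacna1h (Cav3.2) kept 169 and 159 reads at 0 and 1 h and had 100 at 6 h, 1.79-fold lower than at 0 h (1.39 to 2.31). Cacna1g (Cav3.1) had 76, 69 and 76 reads, with intervals that spanned 1 at both times.

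Of the alpha2delta subunits, none was called in exons. Cacna2d2 had 396, 362 and 368 reads and a ratio of 0.815 (0.705 to 0.943) at 1 h. Cacna2d3 had 158, 204 and 207 reads and a ratio of 1.24 (1.00 to 1.53) at 6 h, whose lower bound was just above 1. Cacna2d1 had 64, 61 and 66 exonic reads, with intervals spanning 1. In introns Cacna2d1 had 223, 122 and 301 reads, lower at 1 h (0.745, 0.592 to 0.933) and higher at 6 h (1.51, 1.27 to 1.81), and it was called higher at 6 h against 1 h (2.03, 1.64 to 2.53). Its promoter window (GRCm38.p6, chr5:15934441-15934690, plus strand) is 82.4% G and C and holds the EGR letters on the minus strand, close to the start, in capitals here.
Cacna2d1: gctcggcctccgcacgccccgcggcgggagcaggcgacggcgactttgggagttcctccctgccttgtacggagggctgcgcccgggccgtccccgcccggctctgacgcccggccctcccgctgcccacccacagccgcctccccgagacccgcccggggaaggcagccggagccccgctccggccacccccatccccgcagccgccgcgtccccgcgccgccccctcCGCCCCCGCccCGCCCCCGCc

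The calcium beta subunits, cytoplasmic partners that carry alpha1 to the membrane, differed among themselves. Cacnb4 had 333, 453 and 496 exonic reads, with ratios of 1.21 (1.05 to 1.40) at 1 h and 1.41 (1.22 to 1.62) at 6 h. It was the 1 measured channel gene of 21 with an interval above 1 at 1 h. Cacnb2 had 47, 28 and 71 exonic reads. It was 1.88-fold lower (1.15 to 3.12) at 1 h. The 1 h ratio was 0.340 (0.130 to 0.798) in the 3′ untranslated part, on 21, 8 and 22 reads. It was 0.678 (0.353 to 1.28) in coding exons, on 25, 19 and 45 reads. Across splice junctions it was 1.49 (0.289 to 9.57), on 3, 5 and 10 reads, so the last 2 intervals spanned 1. At 6 h Cacnb2 was called 2.69-fold higher (1.71 to 4.33) than at 1 h but not resolved from 0 h (1.43, 0.974 to 2.11). Cacnb1 (86, 101 and 108 reads) and Cacnb3 (242, 252 and 238 reads) had exonic intervals spanning 1 in all 3 comparisons.

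Cacnb2 introns, 380 kb in all, held 589, 425 and 1025 reads. The intronic ratio was 0.982 (0.865 to 1.11) at 1 h and 1.95 (1.76 to 2.16) at 6 h against 0 h, under the 2-fold rule by a small margin. Intron 2, of 260 kb, held 355, 229 and 651 of these reads and intron 3, of 83.9 kb, held 163, 151 and 275. RefSeq gives a second start within intron 2, 220 kb from the first. The windows before the first (chr2:14604056-14604305) and second (chr2:14823842-14824091) starts, both on the plus strand of GRCm38.p6, are shown because both introns had more reads at 6 h; neither window held the 4 motifs.
Cacnb2 first start: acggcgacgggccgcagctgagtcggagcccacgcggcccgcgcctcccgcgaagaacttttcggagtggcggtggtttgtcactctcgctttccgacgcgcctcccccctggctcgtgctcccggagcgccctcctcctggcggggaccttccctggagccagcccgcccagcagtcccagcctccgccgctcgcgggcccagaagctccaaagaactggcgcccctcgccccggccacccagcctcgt
Cacnb2 second start: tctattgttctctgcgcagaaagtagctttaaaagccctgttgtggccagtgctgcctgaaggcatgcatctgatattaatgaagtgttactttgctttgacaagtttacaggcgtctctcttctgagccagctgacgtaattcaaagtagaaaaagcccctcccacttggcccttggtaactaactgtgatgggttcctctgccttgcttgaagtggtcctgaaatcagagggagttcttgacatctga

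**Figure D3:**
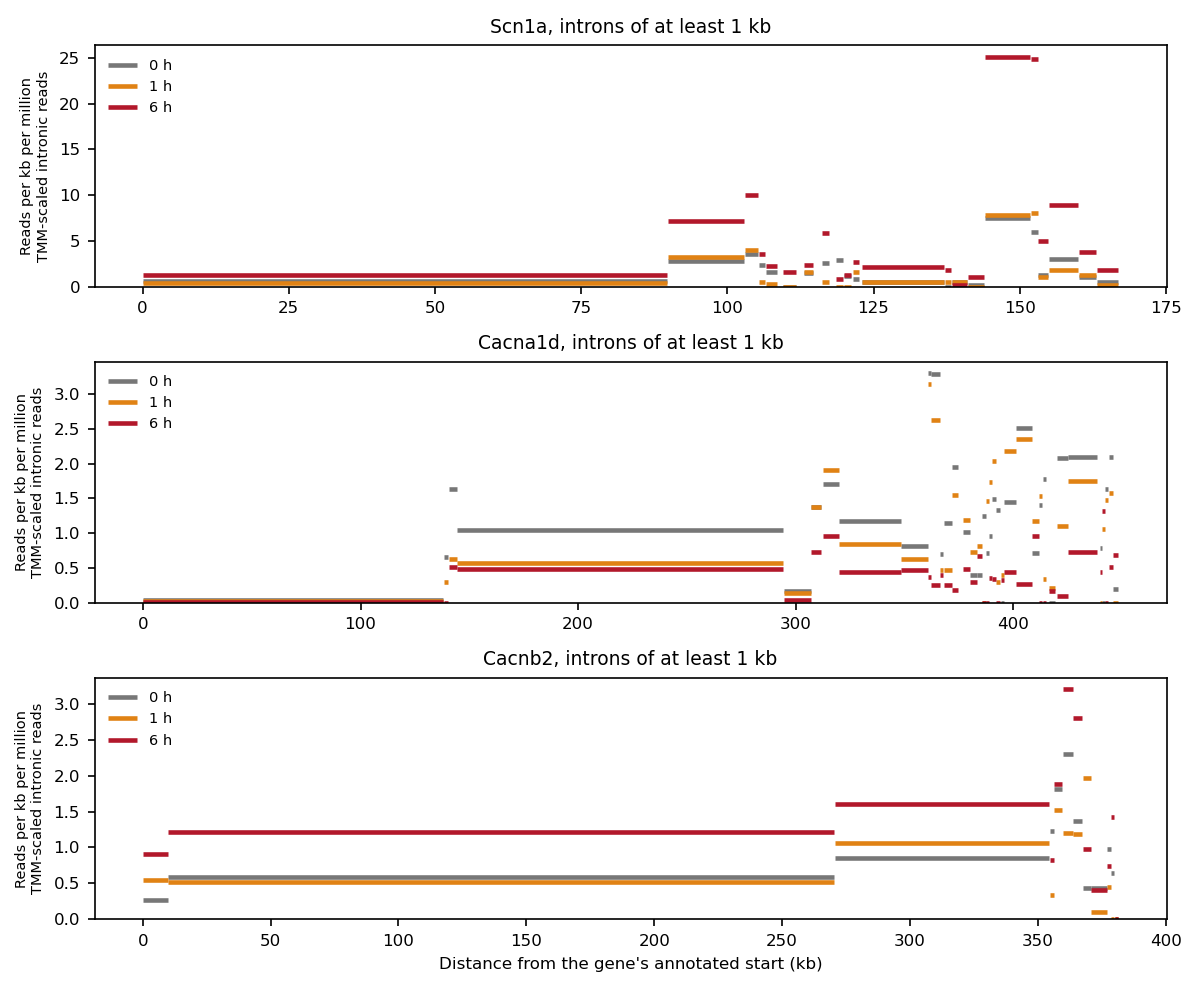
TMM-scaled intronic level (RPKM) in each intron of at least 1 kb of Scn1a, Cacna1d and Cacnb2, against distance from the annotated start (kb), in the 0, 1 and 6 h libraries. Intron 21 of Scn1a, near 150 kb, stands high in that gene with 131, 101 and 391 reads, and intron 1 of Cacna1d lies near 0 with 14, 6 and 2 reads.

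In introns, 20 of the channel genes were measured at 1 h against 0 h and none was called, where 7.48% of 8143 genes were called higher and 6.19% lower. At 6 h against 0 h, 1 of 19 was called higher (Scn1a) and 3 lower (Cacna1d, Cacna1i and Scn2b), where 5.27% and 5.59% of 8236 genes were called. Between 1 h and 6 h, Scn1a and Cacna2d1 were called higher and Cacnb3 lower (2.33-fold, 1.11 to 5.13, on 17, 23 and 12 reads, a call lost when scaled by uniquely mapped reads), where 7.07% and 5.79% were called. The median intronic log2 ratio of the channel genes was −0.22 at 1 h and −0.24 at 6 h, beside −0.05 and 0.05 over all measured genes. By the interval alone, 0 of 20 lay above 1 and 8 below it at 1 h, where 21.1% and 19.9% of all genes did. The corresponding numbers were 5 and 7 of 19 at 6 h against 0 h (22.9% and 15.9%) and 7 and 5 of 19 at 6 h against 1 h (21.6% and 18.5%).

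The exonic and intronic ratios of a gene differed from each other, with an interval excluding equality, in some genes. The counts that follow rest on the separate scaling of exons and introns. They were not repeated with 1 common scaling. At 1 h the exonic ratio exceeded the intronic ratio in 3 of 20 genes and lay below it in 6, where 12.7% and 20.3% of all genes did so. It was above in 3 of 19 and below in 5 at 6 h against 0 h, where 9.74% and 14.7% were. The numbers were 4 and 6 of 19 at 6 h against 1 h, where 20.4% and 16.0% were. At 6 h the exonic ratio of Cacnb4 was 1.41 while its introns, with 800, 491 and 551 reads, had a ratio of 0.772 (0.692 to 0.862). Its exonic ratio was thus 1.82 times the intronic one (1.53 to 2.17). That of Cacna2d2 was 1.505 times (1.06 to 2.14), and that of Scn2b 3.72 times (1.42 to 9.77) on 20, 10 and 5 intronic reads. The 5 genes on the other side were Cacna2d1, with an exonic ratio 0.644 times the intronic one (0.439 to 0.946), Cacna1a (0.714), Cacna1b (0.779), Scn1a (0.803) and Scn3a (0.824). From 0 h to 6 h their unscaled intronic share of sense reads went from 77.7% to 82.0%, 49.9% to 54.1%, 58.8% to 60.7%, 58.2% to 59.4% and 46.6% to 47.2%, in that order. In Cacnb4 it went from 70.6% to 52.6%, in Cacna2d2 from 21.4% to 13.2% and in Scn2b from 11.3% to 2.62%.

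**Figure D4:**
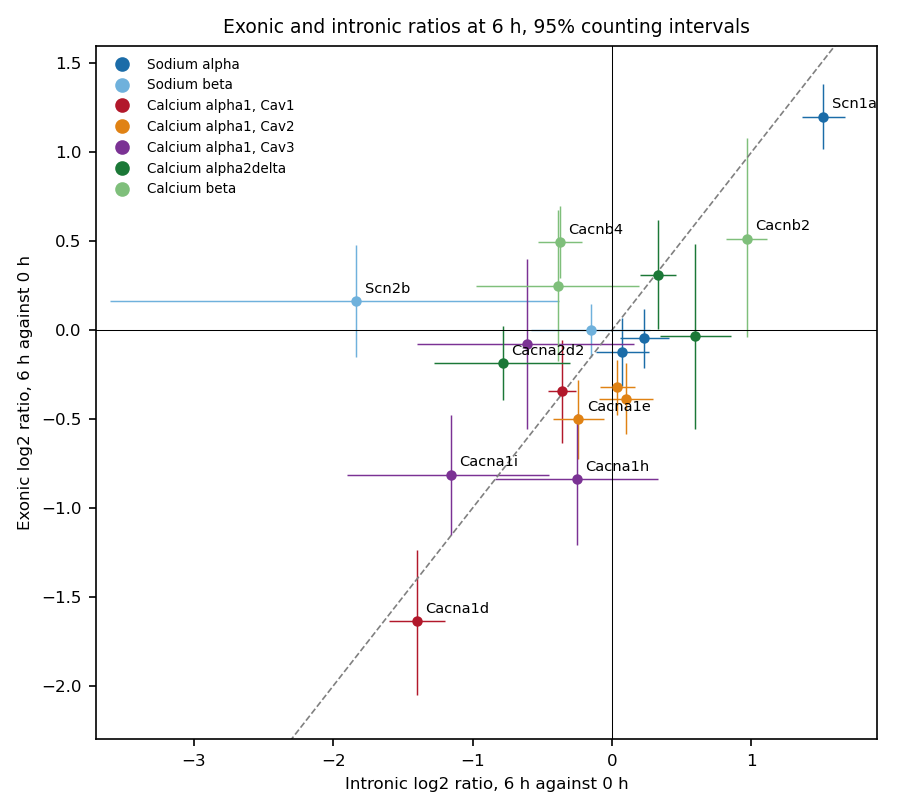
Exonic against intronic log2 ratio at 6 h against 0 h for the 19 genes measured in both, coloured by subunit type, with exact 95% counting intervals and the line of equality (dashed). Scn1a is upper right and Cacna1d lower left, near the line, and Cacnb4 lies above it with an exonic ratio of 1.41 and an intronic ratio of 0.772.

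Many channel genes are long, and reads in their introns were lower near the 5′ end at 1 h. Introns were assigned by their midpoint to the first, middle or last of 3 equal parts of the gene. In 13 of the 14 genes with enough reads in both end parts, the 1 h against 0 h ratio was lower in the first than in the last part, where 55.2% of all 3366 such genes and 64.2% of the 1170 with at least 100 kb of intron showed that order. The median difference was −0.54 on the log2 scale, beside −0.08 over all genes and −0.21 over those with long introns. The interval of the first part lay wholly below that of the last in 3 of the 14 genes, beside 6.68% of all genes and 14.5% of those with long introns. The length limit was chosen after the pattern was seen.

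Those 3 genes were Scn3a, Cacna1e and Cacna2d3. Scn3a had 149, 45 and 108 reads in its first part and 169, 137 and 163 in its last part. Its 1 h ratio was 0.411 (0.288 to 0.577) at the 5′ end and 1.10 (0.874 to 1.39) at the 3′ end. Cacna1e had 179, 66 and 112 reads first and 226, 177 and 162 last, with 1 h ratios of 0.502 (0.373 to 0.669) and 1.07 (0.871 to 1.30). Cacna2d3 had 355, 171 and 331 reads first and 344, 245 and 409 last, with ratios of 0.656 (0.543 to 0.789) and 0.969 (0.820 to 1.15). In each, the 5′ introns had fewest reads at 1 h, and in Scn3a and Cacna2d3 so did the 3′ introns. These read counts are unscaled, and the 1 h library held the fewest intronic reads of all.

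The 6 h against 0 h comparison shares its 0 h library with that at 1 h, so they are not independent of each other. At 6 h against 0 h the order was found in 13 of 14 genes, with a median difference of −0.35. Of all genes 51.1% showed it, and of those with long introns 53.0%. Intervals were wholly apart in 1 of the 14 (3.47% of all genes and 5.97% of those with long introns). Between 1 h and 6 h the order was found in 4 of 12 genes and the intervals were apart in 0. Of all genes 49.6% showed the order and 4.61% had intervals apart, and of those with long introns 41.9% and 7.96%. When each gene was divided at its middle instead, 15 of 17 genes showed the order at 1 h but 9 of 17 did at 6 h. Cacna1h was the exception in both comparisons, with 26, 23 and 23 reads in its first and 33, 29 and 19 in its last part.

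**Figure D5:**
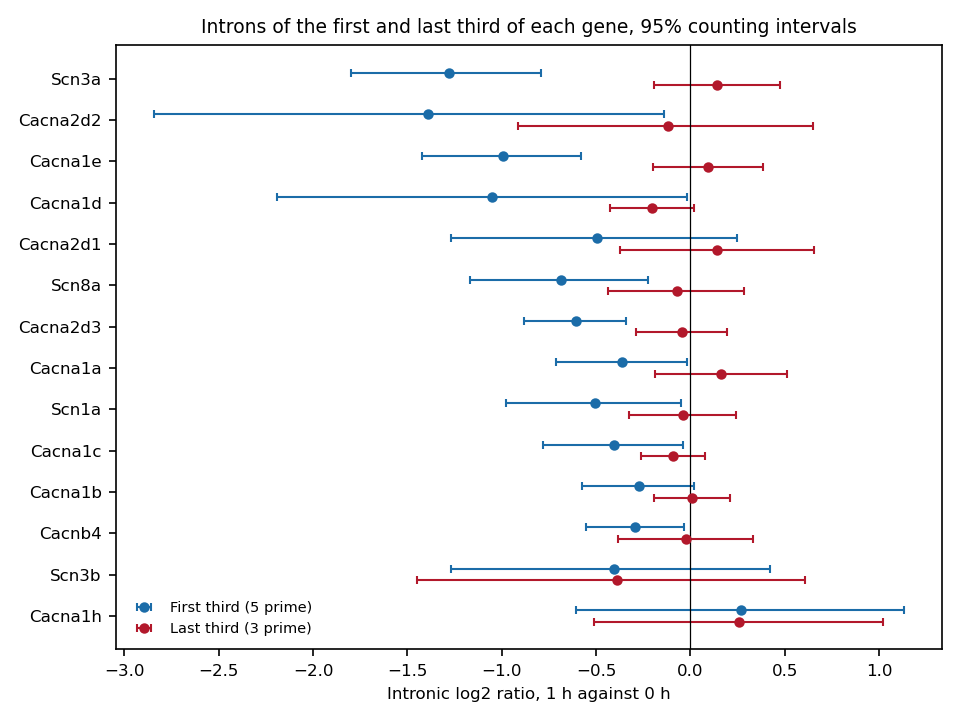
Intronic log2 ratio at 1 h against 0 h in the first (blue) and last (red) of 3 equal parts of the 14 channel genes with enough reads in both, with exact 95% counting intervals. The blue point lies left of the red one in 13 genes, and the intervals are apart in Scn3a, Cacna1e and Cacna2d3.

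Genes that act with these channels were taken from 4 lists. The shares of all genes called, to read beside their counts, were 1.58% higher and 1.43% lower at 1 h, 4.92% and 5.42% at 6 h against 0 h, and 4.17% and 4.63% at 6 h against 1 h. Of 17 sodium channel partners, such as the ankyrins and intracellular FGFs that hold channels at the axon initial segment, none was called at 1 h or at 6 h against 1 h, and none of 16 measured was called at 6 h against 0 h. Their median log2 ratios were 0.07 at 1 h and 0.09 at 6 h against 0 h. Their highest ratio was that of Fgf14 (140, 212 and 256 reads), at 1.35 (1.09 to 1.68) at 1 h and 1.73 (1.40 to 2.14) at 6 h, and their lowest at 6 h that of Tnr (112, 90 and 74 reads; 0.625, 0.459 to 0.846). The lowest at 1 h was Ank2, with 2163, 1603 and 2052 reads and a ratio of 0.661 (0.619 to 0.705).

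Of the calcium channel partners and regulators, 1 of 12 was called higher at 1 h, and 3 of 13 were called higher and 1 lower at 6 h (4.92% and 5.42% of all genes), with median log2 ratios of −0.22 and −0.05. The first was Rem2, with 13, 41 and 72 reads and ratios of 2.81 (1.48 to 5.72) and 5.24 (2.88 to 10.3). Gem had 4, 18 and 26 reads and a 6 h ratio of 6.15 (2.13 to 24.2). Both are RGK small GTPases, which bind calcium channel beta subunits and curb calcium current. Stac, an adaptor that slows the inactivation of L-type channels, had 20, 14 and 100 reads, 4.73-fold higher at 6 h than at 0 h (2.90 to 8.07) and 7.57-fold higher than at 1 h (4.31 to 14.4). Kcnip3, a calcium-binding protein, had 27, 23 and 14 reads and a ratio of 0.490 (0.238 to 0.968). The lowest at 1 h was Thbs1, a secreted ligand of alpha2delta, at 0.611 (0.391 to 0.946).

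Genes of calcium release, uptake and extrusion had 0 of 17 called at 1 h (all genes 1.58% higher and 1.43% lower) and 0 of 16 at 6 h against 0 h (4.92% and 5.42%), with median log2 ratios of −0.15 and −0.21. The highest at 6 h was Atp2b1, a plasma membrane calcium pump, with 371, 375 and 718 reads and a ratio of 1.83 (1.61 to 2.08), and it was called higher at 6 h against 1 h (2.03, 1.79 to 2.31). The lowest at 6 h was Itpr2, at 0.585 (0.269 to 1.23). At 1 h the ends of the list were Mcu (1.70, 0.994 to 2.99) and Stim2 (0.586, 0.428 to 0.798). Calcium-binding and calcium-responsive enzymes had 0 of 12 called at either time against 0 h, beside the same shares of all genes, with median log2 ratios of −0.02 and 0.21. The 6 h ratios ran from Rcan1 (0.841, 0.653 to 1.08) to Nfatc2 (27, 21 and 46 reads; 1.61, 0.981 to 2.70), and Nfatc2 was called higher at 6 h against 1 h (2.32, 1.36 to 4.10). Those at 1 h ran from Nfatc2 (0.694, 0.373 to 1.27) to Ppp3cc (1.40, 0.938 to 2.12).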

How the data were processed

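Sense exonic and intronic read counts per gene, and per intron, were used as deposited by the authors, with 1 library per time. Per the file headers and logs, uniquely mapped 35-base reads with up to 3 mismatches were counted by strand on RefSeq gene models, repeated reads at 1 position were kept, and exonic coverage was normalised to 10000000 reads and corrected for mappability. That coverage signal, deposited by the authors, served only as an alternative. The build was mm9, per the submitters' processing notes. Which aligner was used is not stated in the labels or headers.

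Counts were scaled with TMM factors (edgeR 4.0.16, R 4.3.3), separately for exons and introns. Ratios have exact Clopper-Pearson 95% intervals and levels exact Poisson intervals (scipy 1.17.1). They cover counting error only, since PCR copies cannot be recognised. Log2 ratios used a pseudocount of 0.5 reads. With 1 library per group edgeR's test could not be run.

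The members, gene lists and rules were chosen with earlier results of these data known. All members are counted, and those not reported here singly are left out of the text and figures; of the other lists, genes that met the call rule and the highest and lowest of each at 1 h and 6 h against 0 h. List symbols absent from the tables were matched by gene ID through RefSeq GRCm38.p6. Unc80, Rims1 and Dlx6 were not matched. Promoter windows are from RefSeq GRCm38.p6 and the Scn1a exon from GENCODE M21. No mm9 genome was used here.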

Additional observations from a re-analysis of the deposited data

How the results depend on the processing

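No paired analysis was possible because each time has 1 library, and no replicate could be left out. Counts of exonic calls against 0 h did not move under RLE factors, total exonic reads, uniquely mapped reads, the authors' coverage and minimums of 10, 50 or no reads. A 1.5-fold limit gave 2 lower at 1 h and 3 lower at 6 h. Leaving out Scn1a, the member with a same-strand overlap, left 0 higher at 6 h against 0 h and 1 at 6 h against 1 h. For 6 h against 1 h, total reads, mapped reads and the authors' coverage each gave 1 higher in place of 2, with Scn1a at 1.95 and 1.96 under total and mapped reads.

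Intronic values moved most with scaling. The exonic TMM factors gave 5 lower and a median of −0.83 at 1 h against 0 h, a median of −0.49 at 6 h against 0 h, and 0 lower with a median of 0.33 at 6 h against 1 h. Mapped reads gave 1 lower and a median of −0.59 at 1 h, and 0 lower with a median of 0.25 at 6 h against 1 h. The median of all genes moved alike, from −0.05 to −0.66 and −0.42 at 1 h. At 1 h a minimum of 10 reads, no minimum and a 1.5-fold limit each gave 1 lower. Of the 6 h values against 0 h, 3 were higher at 1.5-fold and 0 without Scn1a. At 6 h against 1 h, a minimum of 50 reads gave 0 lower, a 1.5-fold limit 4 lower, and leaving out Scn1a 1 higher. Splitting genes in the middle gave the 5′ order in 52.9% of members at 6 h against 0 h, in place of 92.9%, and in 13.3% at 6 h against 1 h, in place of 33.3%.

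The exonic median of the channel genes at 1 h, −0.22, became 0.02 under mapped reads, while all genes moved from 0.01 to 0.25. Depth limits the intronic calls of Scn2b, Cacnb3 and Cacna1i and the exonic call of Cacnb2, which rest on low counts.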

Other observations

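Antisense reads were found over introns of a few of these genes. Cacna1c had 199, 104 and 82 antisense intronic reads at 0, 1 and 6 h, and Cacna1d had 80, 43 and 53. Cacna2d4, with 11, 1 and 3 sense intronic reads, had 142, 124 and 124 antisense ones. The tables list a gene model on the opposite strand overlapping each of the 3: Dcp1b, Dcp1a and Lrtm2.

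The intronic share of sense reads was lowest at 1 h in several sodium and calcium channel genes. It was 58.2%, 43.7% and 59.4% in Scn1a at 0, 1 and 6 h, 46.6%, 31.0% and 47.2% in Scn3a, and 51.2%, 36.3% and 50.3% in Scn8a. It was 80.3%, 68.8% and 80.2% in Cacna1d, 77.7%, 66.7% and 82.0% in Cacna2d1 and 85.6%, 74.2% and 83.6% in Cacna2d3. Cacnb2, at 92.6%, 93.8% and 93.5%, did not show this order, and nor did Scn2b, Cacna1g, Cacna1h, Cacna1i and Cacnb3. Over all genes intronic reads made up 23.6%, 20.9% and 24.4% of the mapped reads, and exonic reads 24.3%, 28.7% and 28.9%. The intronic part of the mapped reads was thus lowest at 1 h over all genes too.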
